A study of Homo sapiens and Mus musculus with 21 samples.

Results

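The genes described here encode the subunits of oxidative phosphorylation, the machinery of respiratory complexes I to IV and the ATP synthase, called complex V. Members were chosen by gene symbol among human protein-coding genes after the expression table was joined to GENCODE v29. The symbols were those of the families NDUFS, NDUFV, NDUFA, NDUFB and NDUFC, the 4 SDH subunits, UQCR, COX4 to COX8 and the subunit families of ATP5, with the 13 protein-coding genes of mitochondrial DNA. This gave 99 members of 58336 human genes, 86 encoded in the nucleus and 13 in mitochondrial DNA (MT genes). The nuclear members were 37 of complex I, 4 of complex II, 9 of complex III, 19 of complex IV and 17 of complex V. The MT genes were 7 of complex I, 1 of complex III, 3 of complex IV and 2 of complex V. NDUFA4 and its paralog NDUFA4L2 were counted with complex IV, where the NDUFA4 protein is found. The symbols leave out some subunits with other names, such as CYC1, and these are given at the end.

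Tumours were grown from SW620 and SW480, human colon adenocarcinoma lines established from a lymph node metastasis and a primary tumour of the same patient. Cells were injected into the caecum wall of NSG mice, which lack mature lymphocytes and natural killer cells, and the caecum was taken on day 28. Bulk RNA went into Smart-seq2 libraries, which cover whole transcripts and do not mark strand, and the values are TPM, transcript abundances scaled for length and for the library's human total of 1000000. There were 18 xenograft libraries in 6 groups of 3. The groups were SW620 with dnLEF1, a dominant negative LEF1, SW620 with LRP6, a co-receptor for Wnt, targeted by CRISPR and cells with little LRP6 protein kept by flow cytometry (LRP6KO), SW620 given mock CRISPR reagents (Cas9), SW620 Mock, SW480 dnLEF1 and SW480 Mock. LRP6KO cells are a sorted population and are not described as a clone. The study speaks of biological triplicates, but the labels do not say that each library came from its own mouse, so p-values measure the spread between these libraries. Total depth is not kept by TPM and is unknown here.

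Complexes I to IV pass electrons from NADH and succinate to oxygen. Complexes I, III and IV pump protons across the inner mitochondrial membrane, and complex V makes ATP from the return of the protons. The core of complexes I, III, IV and V is encoded partly in mitochondrial DNA, which is copied into long RNAs spanning many genes by the polymerase POLRMT with TFAM, while the remaining subunits are made from nuclear genes and imported. In colon cancer cells Wnt signalling has been linked to glycolytic metabolism, and dnLEF1, which binds TCF/LEF sites but cannot bind beta-catenin, has been used to lower it.

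LEF1 in dnLEF1 tumours was 18.2 to 24.0 TPM in SW620 and 47.2 to 99.4 TPM in SW480, against 0.3 to 0.8 TPM in SW620 Mock and 5.09 to 14.8 TPM in SW480 Mock. A value per gene adds the introduced and the endogenous transcripts together. LRP6 was 17.4 to 21.1 TPM in LRP6KO and 10.9 to 17.8 TPM in Cas9, and transcript level does not check a population sorted on protein. The 7 carcinoma markers EPCAM, KRT8, KRT18, KRT19, CDH1, VIL1 and CDX2 were above 0 in all 18 libraries. Their summed level was 8739 to 10785 TPM in SW620 dnLEF1, 12025 to 13043 in LRP6KO, 11033 to 14334 in Cas9, 15151 to 17070 in SW620 Mock, 13319 to 18121 in SW480 dnLEF1 and 17337 to 21248 in SW480 Mock. Summed markers of other cell types were 4.66 to 15.03 TPM for fibroblasts, 9.34 to 90.0 for muscle, 0.72 to 8.25 for endothelium and 7.42 to 47.3 for leukocytes. Of their defining genes, CD3E was at 0 in 11 libraries, MS4A1 in 12, MB in 10 and COL3A1 in 7. The host was a mouse and the injected cells were carcinoma lines, so these values do not count human cells of those types. Whether they come from the tumour cells or from mouse reads given to human genes was not tested. SW480 dnLEF1 replicate 1 stood apart from the other libraries of its group, and results that rest on it are given with and without it.

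MT genes stood at much higher levels per length than nuclear members. The median of the 18-library means was 2870 TPM over the 13 MT genes and 301 TPM over the 80 nuclear members tested, those that reached 1 TPM in 3 or more libraries. Of the MT genes, 10 averaged more than the highest nuclear member, ATP5F1B, the catalytic beta subunit of complex V, at 1376 TPM. The highest nuclear members of the other complexes were NDUFB2 of complex I at 644.8 TPM, SDHA, the flavoprotein of complex II, at 175.1 TPM, UQCRQ of complex III at 1050 TPM and COX8A of complex IV at 1097 TPM. In all, 66 of the 80 nuclear members averaged at least 100 TPM and 5 averaged under 15 TPM.

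The MT genes differed among themselves by 22.7 times between MT-CO3, at a mean of 8776 TPM, and MT-ND6, the only MT gene on the light strand, at 387.3 TPM. MT-CO3 made up 14.9% to 23.3% of the summed MT level over the libraries, MT-CO2 11.7% to 28.6%, MT-ND4L 13.4% to 21.3% and MT-ND6 0.547% to 1.35%. MT-ND6 lies opposite the heavy-strand transcript, and without strand, reads from either cannot be told apart. The highest MT-CO2 share belonged to SW480 dnLEF1 replicate 2. Genes that share a transcript also stood at unequal levels. MT-ND4L, of 297 bases, was 3.03 to 7.55 times as high in TPM as MT-ND4, of 1378 bases, with a median ratio of 5.52. Whether the short length of MT-ND4L enters its TPM was not tested, so the ratio is not a measure of RNA copies. MT-ATP8 was 0.514 to 0.94 times as high as MT-ATP6. Each of these pairs overlaps on the heavy-strand transcript, so reads in the overlap cannot be given to 1 gene. The overlaps are shown here in the GRCh38 sequence of chromosome M, plus strand, with the shared bases in capitals, at chrM:8507-8592 for MT-ATP8 and MT-ATP6 and at chrM:10740-10786 for MT-ND4L and MT-ND4.
MT-ATP8 into MT-ATP6: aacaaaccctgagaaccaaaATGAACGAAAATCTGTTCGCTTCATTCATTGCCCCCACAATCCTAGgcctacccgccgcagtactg
MT-ND4L into MT-ND4: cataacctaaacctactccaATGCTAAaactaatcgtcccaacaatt
The first pair shares 46 bases and the second 7 bases, and in both the shared stretch begins with the ATG of the downstream gene. For MT-ATP8, of 207 bases, the overlap is a larger part of the gene than for MT-ATP6, of 681 bases. Nuclear copies of mitochondrial genes, 394 pseudogenes in the table, summed to 494 to 849 TPM per library, and how reads were shared between them and the MT genes is not given in the sources used here.

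**Figure D1:**
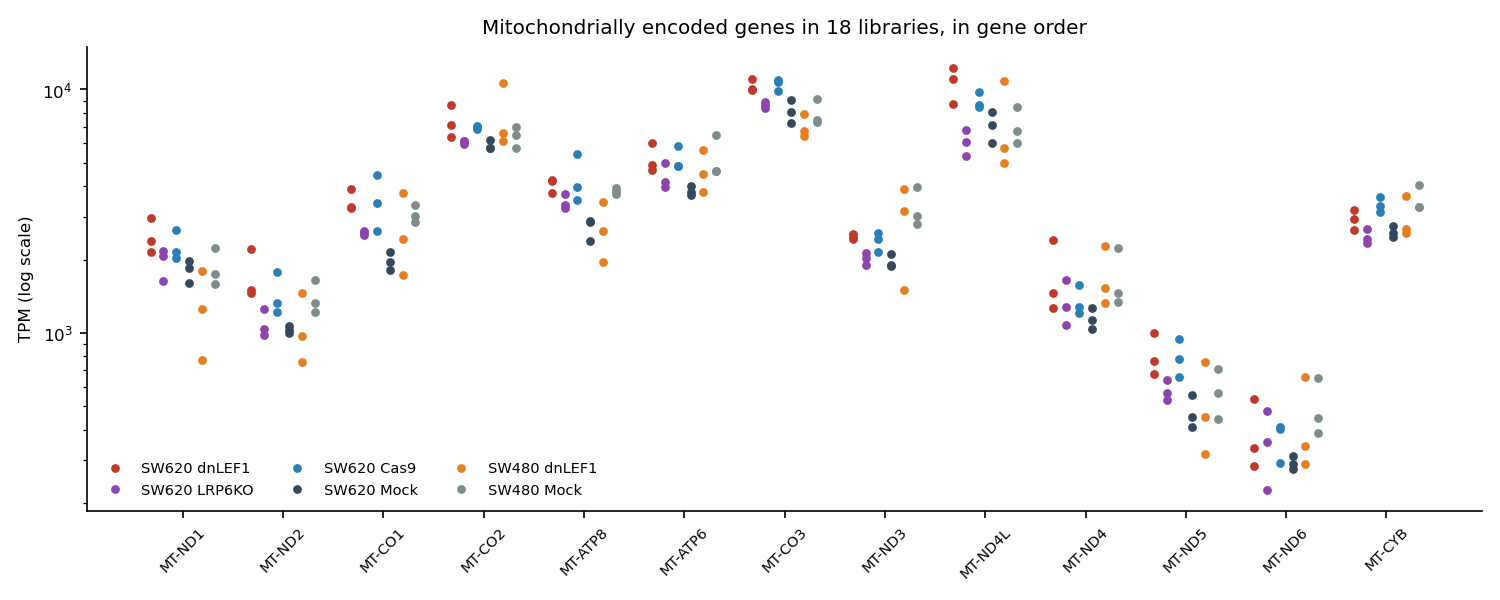
Level of each of the 13 MT genes by group in TPM on a log axis, in their order on mitochondrial DNA, with a point per library. MT-CO3 and MT-ND4L lie near the top, MT-ND6 lies lowest, and the SW620 Mock libraries lie below those of SW620 dnLEF1 for 10 genes.

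Isoforms known for restricted or regulated use were low or absent. COX4I2, the lung and oxygen-regulated partner of COX4I1, reached 1.43 TPM at most, and COX6A2, the heart and muscle partner of COX6A1, was listed at 0 in all 18 libraries. COX7A1, COX7B2, COX8C and UQCRHL were also too low to test, which makes 6 members not tested. COX6B1, the widely used form, was 24.0 to 694 times as high as COX6B2, the testis form. NDUFA4 was 10.3 to 404 times as high as NDUFA4L2, a paralog known to be induced by hypoxia. The remaining members under 15 TPM included the readthrough genes NDUFC2-KCTD14 and ATP5MF-PTCD1, which share exons with NDUFC2 and ATP5MF and whose values are uncertain.

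Summed over members, the MT level spread more widely over the SW620 groups than the nuclear level did. The MT sum was 60600, 51845 and 48676 TPM in SW620 dnLEF1, 41737, 42029 and 39336 TPM in LRP6KO, 57051, 47275 and 49972 TPM in Cas9 and 38999, 37542 and 40303 TPM in SW620 Mock. All libraries of SW620 dnLEF1 and of Cas9 lay above all of LRP6KO and of SW620 Mock. In SW480 the MT sum was 52222, 37026 and 39067 TPM with dnLEF1 and 41683, 48366 and 49288 TPM in Mock, and these groups overlapped, the first library being the highest and the others the lowest of the 6.

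The nuclear sum averaged 30070 ± 450 TPM in SW620 dnLEF1, 29920 ± 1740 in LRP6KO, 28960 ± 986 in Cas9, 30910 ± 644 in SW620 Mock, 28840 ± 5050 in SW480 dnLEF1 and 25570 ± 2070 in SW480 Mock (SD, n = 3 each). The MT over nuclear ratio, which does not depend on how a library is scaled, was 1.79 ± 0.20 in SW620 dnLEF1, 1.38 ± 0.12 in LRP6KO, 1.78 ± 0.23 in Cas9, 1.26 ± 0.07 in SW620 Mock, 1.54 ± 0.56 in SW480 dnLEF1 and 1.83 ± 0.27 in SW480 Mock (SD, n = 3 each). The widest spread was in SW480 dnLEF1, with ratios of 2.17, 1.09 and 1.38 in its 3 libraries. In these bulk values, a change in the mix of tumour cells and a change in RNA per cell cannot be told apart.

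**Figure D2:**
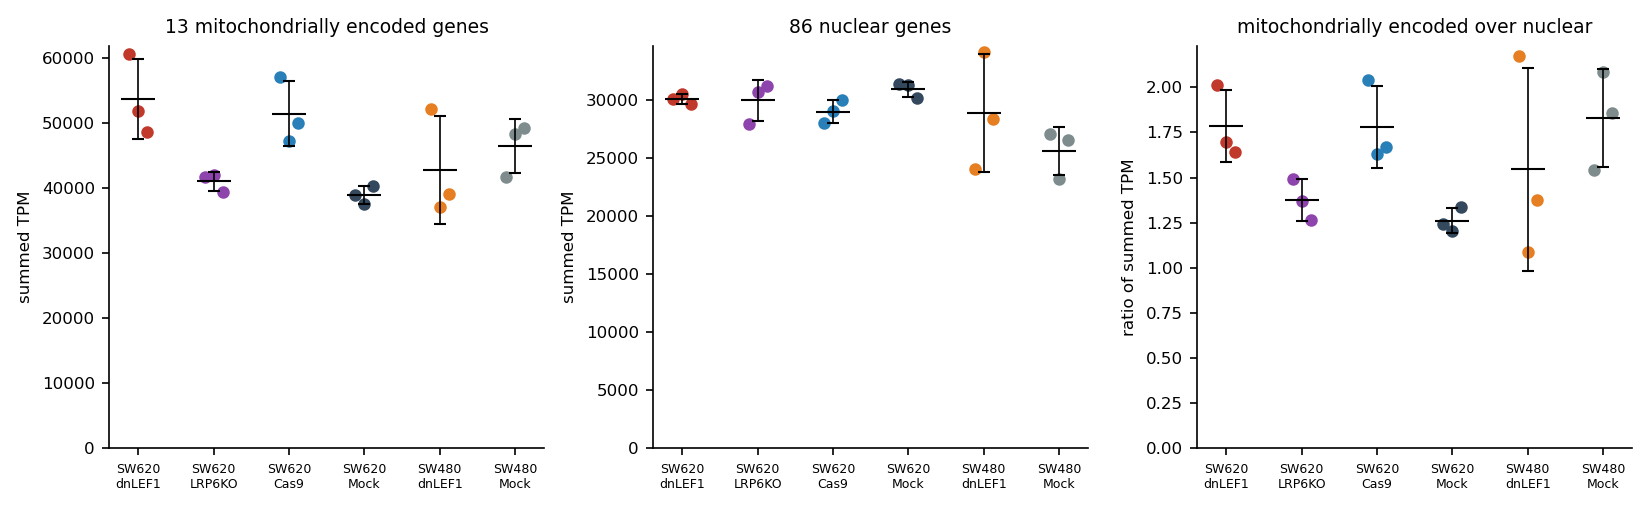
Summed TPM of the MT genes and of the nuclear members, and their ratio, for each library of the 6 groups, with the group mean as a line and its SD as a bar (n = 3). The ratio is highest in SW480 dnLEF1 replicate 1 at 2.17 and lowest in SW480 dnLEF1 replicate 2 at 1.09.

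The comparison of SW620 dnLEF1 with SW620 Mock asks what blocking TCF/LEF does to these genes. No member of either class passed the test at an adjusted p of 0.05, in a comparison where 0.165% of 22981 genes did, 0.0566% higher and 0.109% lower (limma with an intensity trend, Benjamini-Hochberg adjustment). Of the 93 members tested, 13 had an unadjusted p under 0.05, which is 13.98%, against 8.1% of all genes. By class these were 7 of 13 MT genes, or 53.85%, and 6 of 80 nuclear members, or 7.5%. With array weights 5 members were called, where 1.71% of genes were, and with only the groups compared in the fit 4 were, where 0.728% of genes were. Fold changes are on the scale of log2(TPM + 1). All 13 MT genes had values above 0, with a median of 0.47, against -0.09 over the 80 nuclear members and -0.12 over all genes tested. The MT genes share transcripts and are not independent of each other. With median-ratio scaling these 3 medians were 0.64, 0.08 and -0.00, so the nuclear sign turned with the scaling, and the 38 calls over all genes split into 13 higher and 25 lower as deposited and 21 higher and 17 lower with that scaling. The MT sum was 1.37 times as high in dnLEF1, and the MT over nuclear ratio 1.41 times.

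MT-CO1, the catalytic subunit of complex IV, was 3891, 3263 and 3289 TPM in SW620 dnLEF1, against 1955, 1815 and 2140 TPM in SW620 Mock. The groups did not overlap, and the log2 difference was 0.82 (SE 0.22, adjusted p = 0.228). MT-ND5 and MT-ND2, membrane subunits of complex I, had log2 differences of 0.78 and 0.71 (adjusted p = 0.374 and 0.318). The 2 groups did not overlap for 10 of 13 MT genes, each higher in dnLEF1, where 4.49% of all genes tested did so. The pattern was not particular to MT genes. Of 80 cytosolic ribosomal protein genes, 45 lay higher in dnLEF1 without overlap, or 56.2%, and 1 lower. MT-CYB, of complex III, overlapped, with a log2 difference of 0.17 (adjusted p = 0.797). MT-ND4 and MT-ND6 overlapped as well.

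Of the nuclear members in this comparison, 22 of 80 were lower in dnLEF1 without overlap, where 16.4% of all genes tested did so. Another 7 were higher without overlap, where 4.49% of all genes tested did so. ATP5ME, subunit e of the membrane part of complex V, was 816, 721 and 693 TPM in SW620 dnLEF1, against 500.0, 514 and 541 TPM in SW620 Mock (log2 difference 0.52, SE 0.17, adjusted p = 0.365). ATP5MF, subunit f of the same part, went the other way, at 964, 923 and 838 TPM in dnLEF1 and 1297, 1299 and 1292 TPM in Mock (log2 difference -0.52, SE 0.14, adjusted p = 0.228). Neither gene's groups overlapped. NDUFB5, an accessory subunit of complex I, had a log2 difference of -0.70 (adjusted p = 0.422), NDUFA4 of 0.36 (adjusted p = 0.656), NDUFA4L2 of 0.32, and the readthrough genes ATP5MF-PTCD1 and NDUFC2-KCTD14 of -1.55 and -1.002. The summed carcinoma markers were also lower in this comparison without overlap, with KRT19 called at -0.89, and the mitochondrial ribosomal RNA MT-RNR2 was higher without overlap, at a log2 difference of 1.05 (adjusted p = 0.405). Their part in these values was not tested.

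**Figure D3:**
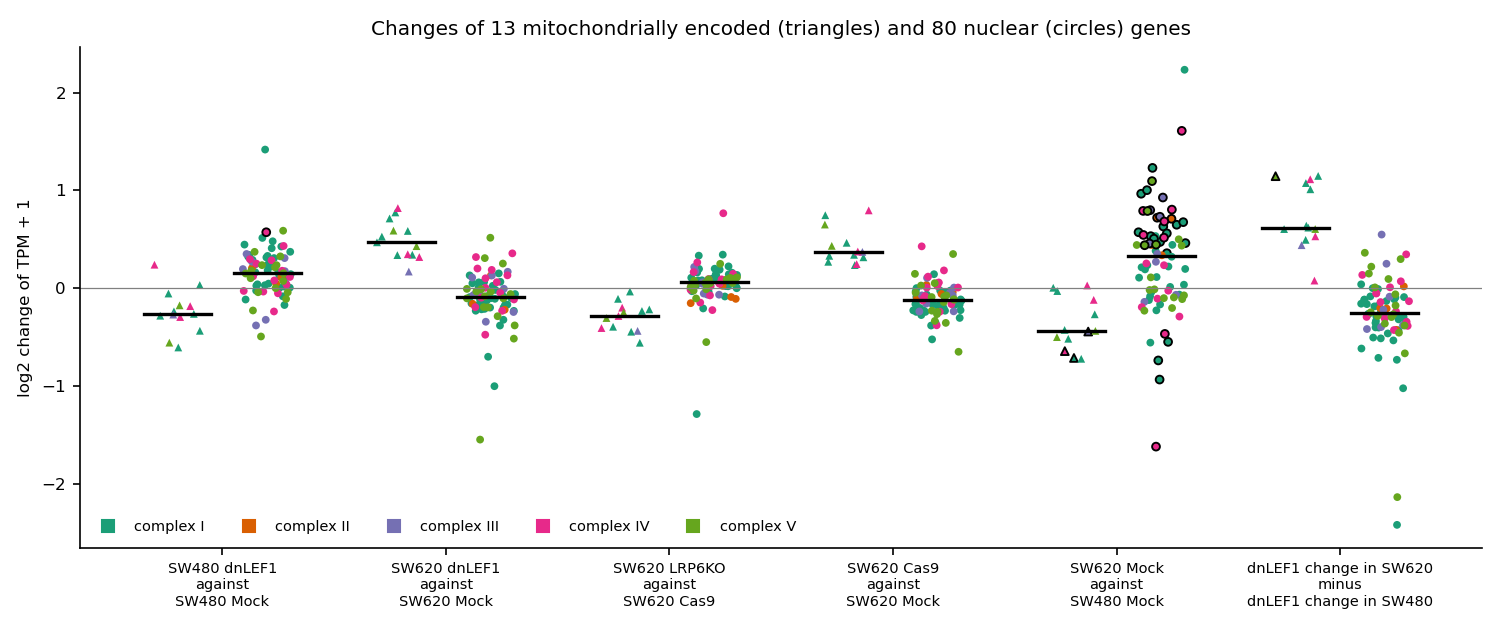
Log2 difference of each of the 93 members tested in the 6 comparisons, with MT genes as triangles, nuclear members as circles, the complex as colour, called members outlined in black and the median of each class as a line. The median of the MT genes lies above that of the nuclear members in the comparisons of SW620 dnLEF1 (0.47 and -0.09) and SW620 Cas9 (0.37 and -0.12) with SW620 Mock, and below it in those of LRP6KO with Cas9 (-0.28 and 0.07) and of SW620 Mock with SW480 Mock (-0.44 and 0.33), while single genes of the classes overlap.

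In SW480 the comparison of dnLEF1 with Mock gave 1 called member, COX7B, a small nuclear subunit of complex IV, where 2.23% of 22981 genes were called, 1.35% higher and 0.875% lower. COX7B (ENSG00000131174.4, chrX:77899438-77907373, plus strand, GRCh38) was 311, 363 and 292 TPM in SW480 dnLEF1, against 253, 196 and 200.5 TPM in SW480 Mock. All dnLEF1 libraries lay above all Mock libraries, and COX7B rose, with a log2 difference of 0.57 (SE 0.14, adjusted p = 0.0459). The call was made in 3 of 14 settings tried, with adjusted p between 0.0321 and 0.471. It was lost without SW480 dnLEF1 replicate 2 or 3, without SW480 Mock replicate 2 or 3, and with a pseudocount of 0.1, no filter, either rescaling, array weights, the replicate block or only the groups compared. In SW620, COX7B had a log2 difference of 0.19 between dnLEF1 and Mock (adjusted p = 0.791), and the difference between the lines' changes was -0.39 (adjusted p = 0.447), so a difference was not shown.

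Over all members of the SW480 comparison, 65 of 80 nuclear members had values above 0 and 11 of 13 MT genes had values below 0. Of the nuclear members, 7 lay higher without overlap, where 7.17% of all genes did so, and none lower. The medians were -0.26 over MT genes, 0.16 over nuclear members and 0.03 over all genes. They were -0.56, 0.28 and 0.06 without SW480 dnLEF1 replicate 1, and -0.02, 0.04 and 0.00 without SW480 dnLEF1 replicate 2. Of the 93 members, 16 had an unadjusted p under 0.05, which is 17.2%, against 14.96% of all genes tested. MT-ATP8, a subunit of the membrane part of complex V, was the only MT gene without overlap, where 4.57% of all genes tested lay lower without overlap, at 3453, 1953 and 2609 TPM in SW480 dnLEF1 and 3735, 3927 and 3817 TPM in SW480 Mock. Its log2 difference was -0.56 (SE 0.18, adjusted p = 0.129). MT-ND1, of complex I, had -0.61 (adjusted p = 0.222). Among nuclear members, NDUFA13, a complex I subunit also known as GRIM-19, had 0.51 (adjusted p = 0.198), UQCRH, the hinge protein of complex III, -0.38 (adjusted p = 0.199) and UQCRFS1, the Rieske iron-sulfur protein, -0.32 (adjusted p = 0.326). The low members NDUFC2-KCTD14, ATP5MF-PTCD1 and ATP5MGL had 1.42, 0.59 and -0.49. The 512 calls over all genes split into 311 higher and 201 lower, and with median-ratio scaling into 190 higher and 225 lower. Of the 7 carcinoma markers, CDX2 and KRT19 fell by 1.62 and 0.66 beside these values, while CDH1, EPCAM and VIL1 had values above 0 that were not called, CDH1 with 0.68 (adjusted p = 0.288). The part of these markers was not tested.

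SW480 dnLEF1 replicate 1 had the lowest nuclear sum of its group, 24045 TPM, against 34106 and 28357 TPM in replicates 2 and 3. Its 2 mitochondrial ribosomal RNAs summed to 58706 TPM, against 14461 and 26044 TPM in the others. Without that library, 16 members were called, 12 nuclear members higher and 4 members lower, and over all genes 1223 were called, 889 higher and 334 lower, which is 5.32% in place of 2.23%. NDUFA13 then had a log2 difference of 0.81 and NDUFB8, a complex I accessory subunit, of 0.77, while UQCRH had -0.51, MT-ND1 -0.90, MT-ATP8 -0.76 and MT-CYB -0.43. NDUFB8 shows the spread of the group, at 161, 375 and 231 TPM in SW480 dnLEF1 and 177, 156 and 185 TPM in SW480 Mock. The MT over nuclear log2 ratio difference was -0.29 with all libraries, -0.57 without SW480 dnLEF1 replicate 1 and -0.07 without SW480 dnLEF1 replicate 2.

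The difference between the 2 lines' dnLEF1 changes, SW620 minus SW480, was tested in the same fit. MT-ATP8 (ENSG00000228253.1, chrM:8366-8572, plus strand) was the only member called, where 0.718% of genes were, 0.178% higher and 0.54% lower, with a difference of 1.15 on the log2 scale (SE 0.25, adjusted p = 0.0465). It was 4224, 3758 and 4247 TPM in SW620 dnLEF1 and 2861, 2394 and 2891 TPM in SW620 Mock, a log2 difference of 0.59 (adjusted p = 0.314), beside the -0.56 in SW480 given above. All SW620 dnLEF1 libraries thus lay above SW620 Mock, and all SW480 dnLEF1 libraries below SW480 Mock. The Cas9 control, at 5452, 3526 and 3989 TPM, also lay above SW620 Mock without overlap, and overlapped SW620 dnLEF1. Between the lines' dnLEF1 changes, MT-ND2, MT-CO1 and MT-ND1 had differences of 1.15, 1.11 and 1.08 (adjusted p = 0.101, 0.112 and 0.156). All 13 MT genes had values above 0, with a median of 0.62, against -0.25 over nuclear members and -0.17 over all genes. With median-ratio scaling the medians were 0.90, 0.01 and 0.02, so the nuclear sign turned, and the 165 calls over all genes, 41 higher and 124 lower, became 54 higher and 54 lower.

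The MT-ATP8 difference was called in 5 of 20 settings, with adjusted p from 0.00426 to 0.126 and values from 0.94 to 1.42. Without SW480 dnLEF1 replicate 1, 16 members were called in this comparison, and over all genes 781 were, 151 higher and 630 lower, which is 3.4% in place of 0.718%. These were 8 MT genes higher, among them MT-CO1 at 1.40 and MT-ND2 at 1.40, and 8 nuclear members lower, among them NDUFB5 at -1.38, NDUFS4, an accessory subunit at the NADH-oxidising tip of complex I, at -0.93 and ATP5MF at -0.86. With all libraries, NDUFB5 had -1.02 (adjusted p = 0.206), and the largest nuclear values the other way were 0.55 for UQCRH (adjusted p = 0.24), 0.36 for ATP5ME and 0.35 for NDUFA4L2. The readthrough genes NDUFC2-KCTD14 and ATP5MF-PTCD1 had -2.42 and -2.14.

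In LRP6KO against Cas9 no gene of the table was called (limma, 0.0% of 22981 genes, 766 at an unadjusted p under 0.05), and therefore no member, with 3 of 93 at an unadjusted p under 0.05, which is 3.23%, against 3.33% of all genes. By class these were 3 of 13 MT genes, or 23.08%, and 0 of 80 nuclear members. Array weights called 1 gene and a fit of only the groups compared 10 genes, none of them a member. The 13 MT genes all had values below 0, with a median of -0.28, against 0.07 over nuclear members and 0.07 over all genes. LRP6KO lay below Cas9 without overlap for 6 of 13 MT genes, where 3.99% of all genes tested did so. The lowest was MT-ND4L, at 6839, 6103 and 5351 TPM in LRP6KO and 9721, 8445 and 8671 TPM in Cas9 (log2 difference -0.56, adjusted p = 1.0). MT-CYB was 2344, 2440 and 2666 TPM in LRP6KO, against 3611, 3331 and 3140 TPM in Cas9 (log2 difference -0.44, unadjusted p = 0.00462, adjusted p = 1.0). The MT sum was 0.80 times as high in LRP6KO and the MT over nuclear ratio 0.775 times. Of nuclear members, 6 lay higher and 1 lower without overlap, where 5.68% and 3.99% of all genes tested did so. The largest values were 0.77 for COX6B2, 0.34 for NDUFB6 and 0.33 for NDUFB5 in one direction, and -1.29 for NDUFC2-KCTD14, -0.55 for ATP5MF-PTCD1 and -0.22 for NDUFA4 in the other. The summed endothelial markers did not overlap, at 5.67 to 8.25 TPM in LRP6KO and 1.92 to 3.03 TPM in Cas9. Of the 4, PECAM1 and VWF were tested, with 1.15 and 0.53 (adjusted p = 1.0 each), and their part in these values was not tested.

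Cas9 against SW620 Mock compares 2 control tumours of the same line, made by different procedures. No gene was called (limma, 0.0% of 22981 genes, 1154 at an unadjusted p under 0.05), and of the 93 members 11 had such a p, which is 11.8%, against 5.02% of all genes. By class these were 7 of 13 MT genes, or 53.85%, and 4 of 80 nuclear members, or 5.0%. With array weights 4 members were called, where 0.439% of genes were, and with only the groups compared 1 was, where 0.0475% of genes were. The MT genes nonetheless lay apart, with 13 of 13 values above 0 and a median of 0.37, against -0.12 over nuclear members and -0.03 over all genes. Cas9 lay above Mock without overlap for 11 of 13 MT genes, where 6.44% of all genes did so, and the MT over nuclear ratio was 1.41 times as high in Cas9. MT-CO1 was 4468, 2610 and 3410 TPM in Cas9 and 1955, 1815 and 2140 TPM in Mock (log2 difference 0.80, adjusted p = 0.571). The SW620 Mock libraries serve in this comparison, in that of SW620 dnLEF1 and in that between the lines, and Cas9 serves in that of LRP6KO. The MT level of a control therefore enters several differences at once. In MT sum, the libraries of LRP6KO lay below those of Cas9 but overlapped those of SW620 Mock. The MT sum averaged 41030 ± 1480 TPM in LRP6KO, 51430 ± 5050 in Cas9 and 38950 ± 1380 in SW620 Mock (SD, n = 3 each).

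Of nuclear members, 24 of 80 lay lower in Cas9 without overlap, where 7.81% of all genes did so. ATP5MF (ENSG00000241468.7, chr7:99448475-99466331, minus strand) was 774, 836 and 870.1 TPM in Cas9, against 1297, 1299 and 1292 TPM in SW620 Mock. The groups lay far apart, with a log2 difference of -0.65 (SE 0.14, adjusted p = 0.339). It was 829, 864 and 950.1 TPM in LRP6KO and 964, 923 and 838 TPM in SW620 dnLEF1, so within SW620 the 3 Mock libraries were the highest of 12. NDUFB5 had -0.52 and NDUFS7, a core iron-sulfur subunit of complex I, -0.38. In the other direction, NDUFA4L2 had 0.43, ATP5ME 0.35 (adjusted p = 0.988) and COX4I1, a regulatory subunit of complex IV, 0.18. The summed carcinoma markers were 11033 to 14334 TPM in Cas9 and 15151 to 17070 TPM in SW620 Mock, and the 2 mitochondrial ribosomal RNAs summed to 42629 to 72661 TPM in Cas9 and 29643 to 40983 TPM in SW620 Mock. Neither pair of ranges overlapped, no carcinoma marker was called, and their part in these values was not tested.

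**Figure D4:**
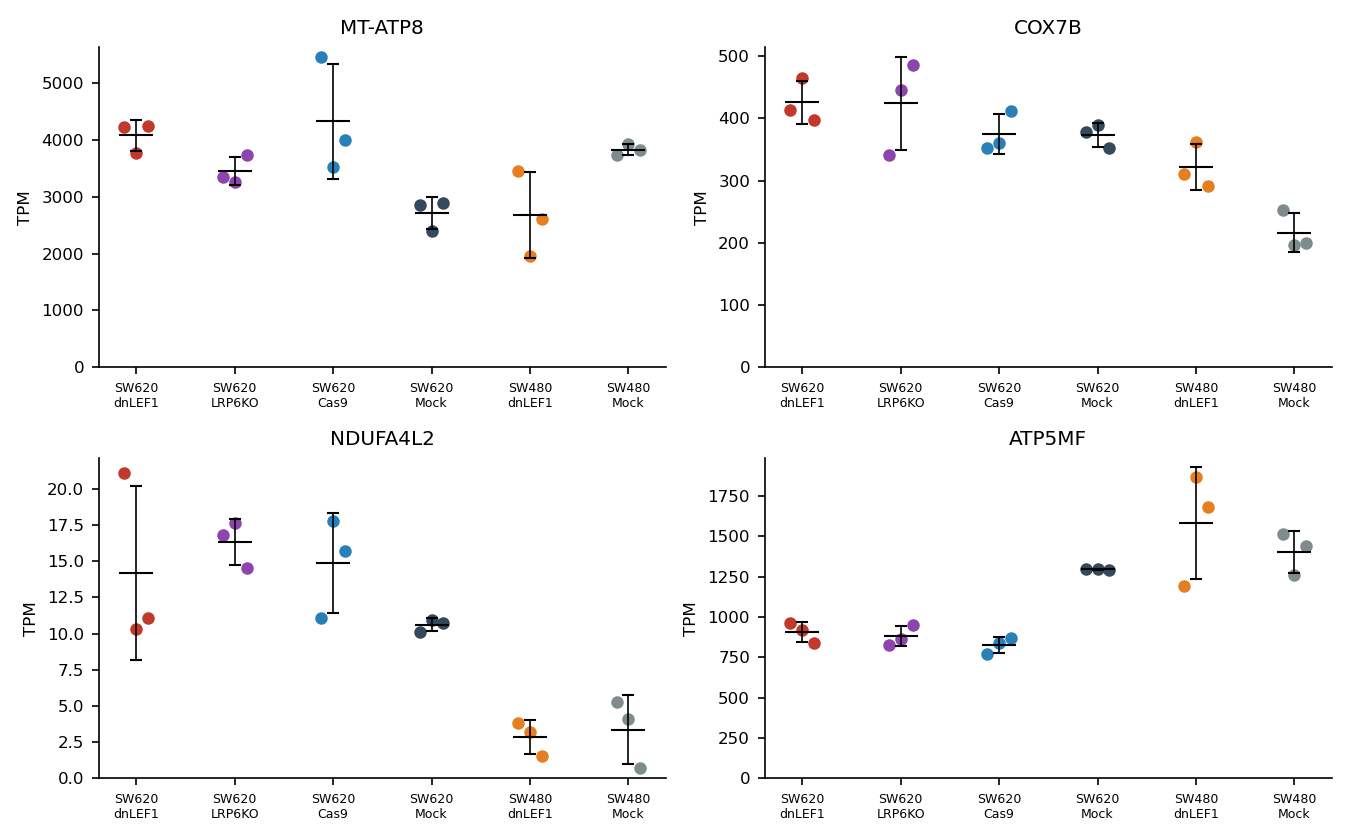
TPM of COX7B, MT-ATP8, ATP5MF and NDUFA4L2 in every library of the 6 groups, with the group mean as a line and its SD as a bar (n = 3). SW620 Mock is the highest SW620 group for ATP5MF, at 1292 to 1299 TPM, and both SW480 groups lie below all SW620 groups for NDUFA4L2.

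Most calls among these genes were made between the lines. In SW620 Mock against SW480 Mock, 37 of 93 members were called, where 23.9% of 22981 genes were, and they split by class. Of the 80 nuclear members, 29 were higher and 5 lower in SW620 Mock, where 10.9% and 12.9% of all genes were, and of the 13 MT genes none was higher and 3 were lower. The medians were -0.44 over MT genes, 0.33 over nuclear members and -0.14 over all genes. The nuclear sum was 1.21 times as high in SW620 Mock, the MT sum 0.84 times and the MT over nuclear ratio 0.694 times. Of the nuclear members, 40 lay higher and 7 lower without overlap, where 15.7% and 19.7% of all genes did so. The count of called members was 24 without SW480 Mock replicate 2, 24 without SW620 Mock replicate 1 and 23 without SW620 Mock replicate 2, where 20.1%, 18.3% and 19.0% of all genes were called.

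Complex I, which takes electrons from NADH, had 13 of 37 nuclear members higher and 3 lower. NDUFS5, an accessory subunit, was 607, 617 and 558 TPM in SW620 Mock, against 350, 258 and 287 TPM in SW480 Mock, and rose by 1.00 in log2 units (SE 0.11, adjusted p = 6.41e-06). NDUFB8 was 429, 436 and 356 TPM in SW620 Mock and 177, 156 and 185 TPM in SW480 Mock, and rose by 1.23 (SE 0.22, adjusted p = 4.57e-04). NDUFS4 rose by 0.97 (adjusted p = 3.43e-04). No SW480 Mock library reached SW620 Mock in these 3 genes. NDUFB1, an accessory subunit of the membrane arm, went the other way, at 278, 189 and 192 TPM in SW620 Mock and 399.9, 379 and 466 TPM in SW480 Mock (log2 difference -0.93, SE 0.15, adjusted p = 1.66e-04). NDUFV3 fell by 0.74 (adjusted p = 8.42e-04). NDUFA3 fell by 0.55 (adjusted p = 0.0371), a call made in 6 of 14 settings.

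Complex II, the succinate dehydrogenase that links the citric acid cycle to the chain and has no MT subunit, had 2 of 4 members higher. SDHB, its iron-sulfur subunit, was 196, 185 and 195 TPM in SW620 Mock, against 129, 118 and 105 TPM in SW480 Mock, and rose by 0.71 (SE 0.17, adjusted p = 0.00508). SDHA rose by 0.72 (adjusted p = 0.00763). The membrane anchors SDHC and SDHD had 0.44 and 0.34 (adjusted p = 0.0887 and 0.268). Complex III, which passes electrons from ubiquinol to cytochrome c, had 4 of 8 nuclear members higher. UQCRB, which lies at the ubiquinone site, was 134, 103 and 103 TPM in SW620 Mock and 65.3, 53.4 and 58.3 TPM in SW480 Mock, and rose by 0.93 (SE 0.17, adjusted p = 5.45e-04). The core protein UQCRC2 rose by 0.80, UQCRH by 0.73 and UQCR10 by 0.46 (adjusted p = 0.00104, 0.00104 and 0.034).

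Complex IV, which reduces oxygen, had 6 of 14 nuclear members higher and 2 lower. NDUFA4L2 was 10.1, 10.97 and 10.7 TPM in SW620 Mock, against 5.29, 4.10 and 0.71 TPM in SW480 Mock, and rose by 1.61 (SE 0.39, adjusted p = 0.00647). Its partner NDUFA4 had -0.11 (adjusted p = 0.716). COX6B2 was 2.15, 2.35 and 4.21 TPM in SW620 Mock and 7.52, 22.1 and 7.10 TPM in SW480 Mock, and fell by 1.62 (SE 0.50, adjusted p = 0.0273), while its partner COX6B1 had -0.19 (adjusted p = 0.354). NDUFA4L2 and COX6B2 are low, and at such levels a pseudocount of 1 understates the change. COX7B rose by 0.79 (adjusted p = 5.69e-04) and COX7C, another small subunit, by 0.80 (adjusted p = 2.91e-04). COX7A2L, a factor that joins complexes III and IV, fell by 0.47 (adjusted p = 0.0286), and was called in 9 of 14 settings.

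Complex V had 4 of 17 nuclear members higher and none lower. ATP5MC2, 1 of the genes that encode subunit c of the rotor ring, was 934, 1132 and 1141 TPM in SW620 Mock, against 502, 421 and 583 TPM in SW480 Mock. The groups did not overlap, and ATP5MC2 rose by 1.10 (SE 0.12, adjusted p = 3.92e-06). ATP5F1B rose by 0.79 (adjusted p = 0.00439). Subunits b and g of the membrane part, ATP5PB and ATP5MG, rose by 0.45 and 0.44 (adjusted p = 0.0278 and 0.0398), in 8 and 3 of 14 settings.

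The MT genes called were 1 of 7 in complex I, the only one of complex III and 1 of 3 in complex IV, all lower in SW620 Mock. MT-ND3 was 2113, 1887 and 1903 TPM in SW620 Mock, against 2795, 3009 and 3976 TPM in SW480 Mock, and fell by 0.71 (SE 0.24, adjusted p = 0.0396). MT-CYB was 2737, 2577 and 2474 TPM in SW620 Mock and 3298, 3297 and 4031 TPM in SW480 Mock, and fell by 0.44 (SE 0.13, adjusted p = 0.0221). MT-CO1 fell by 0.64 (SE 0.22, adjusted p = 0.0427). None of the 3 was called with median-ratio scaling, where the differences were -0.62, -0.35 and -0.55, and none without the filter on low values. MT-ND3 was called in 7 of 14 settings, MT-CYB in 9 and MT-CO1 in 6, and no MT gene was called without SW480 Mock replicate 3 or without SW620 Mock replicate 2 or 3. MT-ATP8 and MT-ATP6 had -0.50 and -0.44 (adjusted p = 0.052 and 0.0657), while MT-CO3, MT-ND4L and MT-ND1 had 0.03, 0.00 and -0.03.

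**Figure D5:**
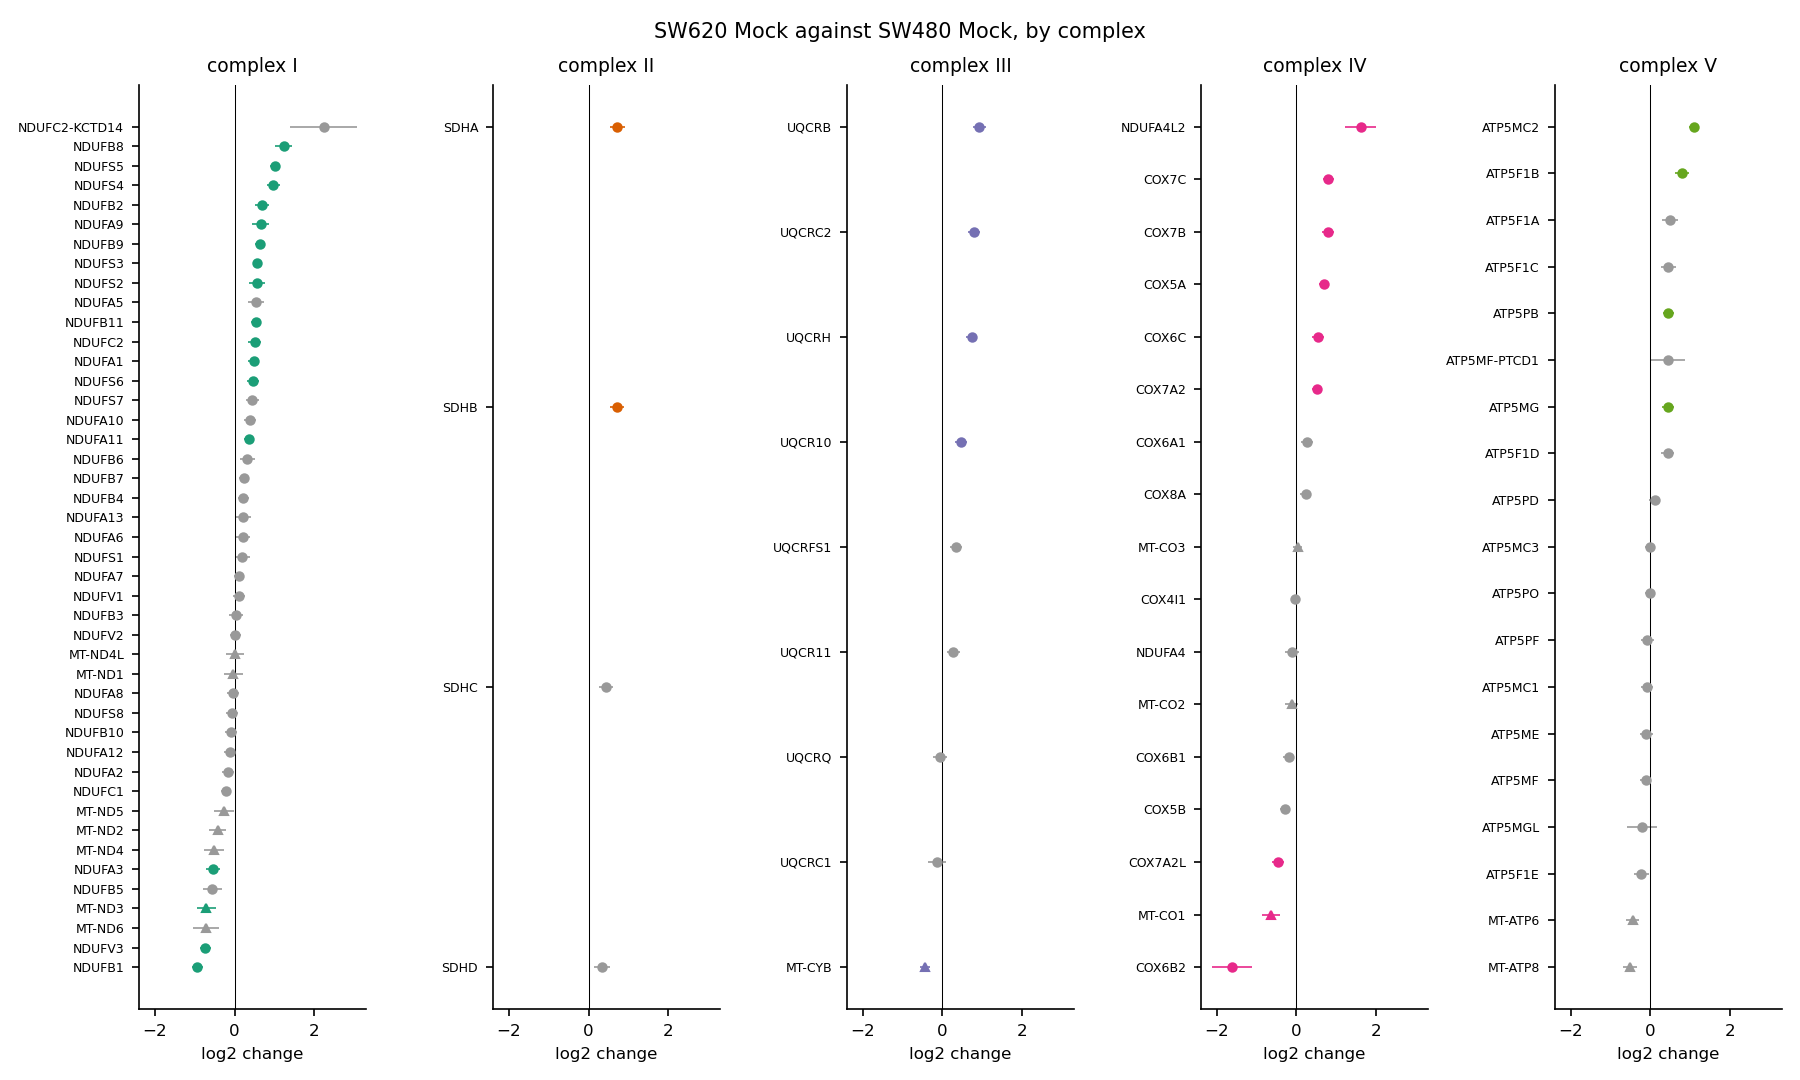
Log2 difference of SW620 Mock against SW480 Mock for every member tested, by complex, with triangles for MT genes, circles for nuclear members, bars for the standard error, and colour for called members against grey for the others. Nuclear members called higher are found in all 5 complexes, and the 3 MT genes called are lower.

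Beside these differences, 2 of the 7 muscle markers, DES and ACTA2, fell by 1.74 and 1.43 in SW620 Mock, and all 5 muscle markers tested had values below 0. Of the 6 fibroblast markers 4 were tested, and LUM rose by 3.25, while COL1A1, COL1A2 and DCN had -0.64, -0.37 and -0.69 and were not called. Of the 4 endothelial markers 2 were tested, and PECAM1 rose by 1.16, while VWF had -0.26 and was not called. The summed muscle markers were 17.2 to 23.6 TPM in SW620 Mock and 37.8 to 90.0 TPM in SW480 Mock. The summed carcinoma markers were 15151 to 17070 TPM in SW620 Mock and 17337 to 21248 TPM in SW480 Mock, and of the 7, CDX2 fell by 3.83 and VIL1 rose by 0.67. Ribosomal protein genes were also higher in SW620 Mock, 42 of 80 cytosolic and 38 of 78 mitochondrial genes, with 1 and 4 lower, where 10.9% of all genes tested were higher and 12.9% lower. The part of these in the differences of the respiratory subunits was not tested.

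Promoters were read for the nuclear members because many of them moved together between the lines. Of the 86 nuclear members, 67 had a window in RefSeq (GRCh38.p14) of 250 bases before to 50 bases after the start. They were searched on both strands for the letters of NRF1, GCGCA and GCGC with any 1 base between them, for CCGGAAG of ETS factors such as GABPA, which are known to act on respiratory genes, for AAGATGGCG of YY1, and for CTTTGAT of TCF/LEF. The last 3 letters of the ETS motif are the first 3 of the YY1 motif, so their matches can overlap. The NRF1 letters were in 16 of 67 windows, which is 23.9%, against 6.28% of 27305 promoters of the same length. The ETS letters were in 19, or 28.4%, against 10.7%, and the YY1 letters in 8, or 11.9%, against 1.85%. The TCF/LEF letters were in 0 of 67, against 2.64% of all promoters. A match is a description of letters, and a window without one says only that these letters are not there.

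The 3 windows shown belong to COX7B, the member called in SW480 dnLEF1, to SDHB, higher in SW620 Mock, and to NDUFA3, lower there. Capitals mark the motifs found. They lie at chrX:77899218-77899517 on the plus strand, chr1:17053983-17054282 on the minus strand and chr19:54102605-54102904 on the plus strand.
COX7B promoter: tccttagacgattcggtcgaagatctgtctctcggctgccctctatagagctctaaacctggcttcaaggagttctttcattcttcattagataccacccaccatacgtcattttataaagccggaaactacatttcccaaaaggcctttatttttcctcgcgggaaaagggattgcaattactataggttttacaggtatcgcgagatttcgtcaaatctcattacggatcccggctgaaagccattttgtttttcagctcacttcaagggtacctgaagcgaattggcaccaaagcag
SDHB promoter: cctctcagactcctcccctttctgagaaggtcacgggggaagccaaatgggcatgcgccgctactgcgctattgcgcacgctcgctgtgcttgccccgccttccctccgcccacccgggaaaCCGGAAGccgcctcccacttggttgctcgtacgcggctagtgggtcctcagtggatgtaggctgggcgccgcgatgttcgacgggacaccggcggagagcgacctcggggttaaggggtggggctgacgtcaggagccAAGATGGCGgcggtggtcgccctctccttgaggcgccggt
NDUFA3 promoter: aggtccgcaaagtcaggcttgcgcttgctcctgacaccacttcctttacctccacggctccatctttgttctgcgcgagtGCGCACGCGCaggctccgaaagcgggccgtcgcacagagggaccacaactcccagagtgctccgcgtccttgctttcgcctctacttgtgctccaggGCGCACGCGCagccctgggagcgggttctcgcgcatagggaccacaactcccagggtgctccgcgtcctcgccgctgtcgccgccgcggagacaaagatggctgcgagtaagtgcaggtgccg
COX7B held none of the 4 motifs. SDHB held the ETS letters at -128 to -122 and the YY1 letters at 10 to 18, counted from the start, and NDUFA3 held the NRF1 letters at -170 to -161 and at -73 to -64. Among the 21 members with a window that were called higher in SW620 Mock, 4 held the NRF1 letters, 5 the ETS letters and 3 the YY1 letters. These are 19.0%, 23.8% and 14.3%, against 23.9%, 28.4% and 11.9% of the 67 windows. The 21 are part of the 67, and counts this small cannot show whether the called members differ by these letters. Among the 5 called lower, 1 held the NRF1 letters.

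Other genes of the pathway were read from lists of their own in the comparison of SW620 Mock with SW480 Mock. Of 49 assembly factors of the complexes, 11 were higher and 4 lower in SW620 Mock, where 10.9% and 12.9% of all genes tested were. COA4, of complex IV assembly, was 245, 220.2 and 245 TPM in SW620 Mock, against 148, 106 and 123 TPM in SW480 Mock, and rose by 0.92 (SE 0.12, adjusted p = 1.83e-05). NDUFAF5, which modifies a complex I subunit during assembly, rose by 1.25, TMEM126A, of complex I assembly, by 1.13 and TMEM70, of complex V assembly, by 1.00 (adjusted p = 8.46e-05, 2.46e-04 and 2.69e-04).

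Of 29 genes that copy, transcribe or process mitochondrial DNA, 6 were higher and none lower, against the same 10.9% and 12.9% of all genes. TFAM, which packages mitochondrial DNA and starts its transcription, was 115, 90.5 and 94.99 TPM in SW620 Mock, against 35.9, 30.7 and 32.7 TPM in SW480 Mock. It rose by 1.57 (SE 0.13, adjusted p = 2.26e-07), and averaged 84.1 to 100.2 TPM over the 4 SW620 groups and 29.1 and 33.1 TPM in SW480 dnLEF1 and SW480 Mock. SUPV3L1, a mitochondrial RNA helicase, rose by 1.39, TFB1M, which methylates mitochondrial ribosomal RNA, by 1.27 and SSBP1, which binds single-stranded mitochondrial DNA, by 0.68. POLRMT had 0.34 (adjusted p = 0.396).

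Of 11 nuclear regulators, GABPB1, the partner of the ETS factor GABPA, rose by 1.45 (adjusted p = 6.92e-05), while NRF1 had 0.28 and PPARGC1A, a coactivator of mitochondrial genes, -0.29 (adjusted p = 0.433 and 0.679). Of 17 genes of the citric acid cycle and pyruvate dehydrogenase, 1 was higher, IDH3B. Of 8 subunits with other names, NDUFAB1 and ATP5MD were higher, and CYC1, cytochrome c1 of complex III, had 0.12 (adjusted p = 0.642). Over all genes tested, 10.9% were higher and 12.9% lower in this comparison, and the shares of the regulators and of the citric acid cycle genes called higher, 1 of 11 and 1 of 17, did not exceed that. In the other 5 comparisons limma called no gene of these 5 lists, with 0 to 7 genes per list and comparison at an unadjusted p under 0.05.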

How the data were processed

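The authors deposited human gene values in TPM for 18 xenograft libraries. Per the submitters' processing notes, the tools were Trimmomatic 0.35, Bowtie 1.2 and RSEM 1.2.31, with hg38 and mm10. How human and mouse reads were separated is not given in the sources used here. TPM keep no depth, so no counting interval is given. Identifiers were matched to GENCODE v29 (58216 of 58381), and 45 second pseudoautosomal copies, all at 0, were left out. The mouse table and its injection controls were not used.

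The 22981 genes that reached 1 TPM in 3 or more libraries were log-transformed as log2(TPM + 1) and fitted in limma (version 3.58.1, R 4.3.3) with a trended prior, a mean per group and all libraries together. The Benjamini-Hochberg method adjusted p-values separately for the 6 comparisons, with a threshold of 0.05. The procedure was tested on simulated data in which genes varied independently. That does not cover MT genes, which share transcripts. Sums over members were compared as log2 differences with no test. Tables were handled with pandas 2.3.3 and numpy 2.4.6 under Python 3.11.15, and matplotlib 3.10.9 drew the figures.

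Named were all 13 MT genes, called nuclear members (beyond 10 in a direction, the 6 largest changes), otherwise the 3 largest values each way, the highest member per complex, isoform pairs and at most 4 called genes per other list. Further called members and the leave-out results were named after their values were seen. Members and lists were chosen with earlier results of these data known. Alternatives were a pseudocount of 0.1, no filter, median-ratio scaling, rescaling without chromosome M, array weights, a replicate block, only the groups compared, and each library left out.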

Additional observations from a re-analysis of the deposited data

Results flagged for a closer look

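MT-ATP8 was the only member whose dnLEF1 change was called different between the lines by the test of the difference itself. That is 1 of 93 members, or 1.08%, where 0.718% of all genes tested were called. Its change in SW620 minus its change in SW480 was 1.15 on the log2 scale (limma, SE 0.25, adjusted p = 0.0465). All 13 MT genes had differences above 0, with a median of 0.62 and a highest value of 1.15, so the direction was not particular to MT-ATP8. MT-ATP6, which shares 46 bases with MT-ATP8, had 0.61 and was not called. In SW480 the MT-ATP6 groups overlapped, with a log2 difference of -0.18 between dnLEF1 and Mock. For MT-ATP8, all 3 dnLEF1 libraries lay above all Mock libraries in SW620 and below them in SW480. The Cas9 control, which has no dnLEF1, also lay above SW620 Mock without overlap, at 5452, 3526 and 3989 TPM, and overlapped SW620 dnLEF1. Its log2 difference from SW620 Mock was 0.65, beside 0.59 for SW620 dnLEF1. Without SW480 dnLEF1 replicate 1 the difference between the lines' changes was 1.35 (adjusted p = 0.00426), and over the settings tried it lay between 0.94 and 1.42. It was called in 5 of 20 settings, with adjusted p from 0.00426 to 0.126, and was not called when any 1 of the other 11 libraries was left out.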

How the results depend on the processing

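No called result changed sign under an alternative. With median-ratio scaling, the log2 difference of the MT sum was 0.63 in SW620 dnLEF1 against Mock and 0.87 for the difference between lines, and that of the nuclear sum was 0.13, 0.37 in SW620 Mock against SW480 Mock and 0.076 for the difference between lines. In SW480 dnLEF1 against Mock, 0 members were called with a pseudocount of 0.1, no filter, either rescaling, array weights, or only the groups compared, and 0 to 16 with 1 library left out. In SW620 dnLEF1 against Mock, 5 were called with array weights and 4 with only the groups compared (ATP5ME, ATP5MF, MT-ATP8 and MT-CO1 in both). In Cas9 against SW620 Mock, 4 were called with array weights and 1, ATP5MF, with only the groups compared. Between SW620 Mock and SW480 Mock, 24 were called without the filter and 23 to 35 with 1 library left out. For the difference between lines, 0 were called with a pseudocount of 0.1, no filter, median-ratio scaling or only the groups compared, 2 with array weights, and 0 to 16 with 1 library left out. In that last set no member was called without any 1 of 10 of the 12 libraries, 16 were without SW480 dnLEF1 replicate 1, and 1, NDUFC1, was without SW480 Mock replicate 3. The causes were not tested.

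The labels do not say what the replicate numbers stand for. Deviations of same-numbered libraries correlated between -0.13 and 0.12 in the 5 comparisons of 2 groups. Those of differently numbered libraries correlated between -0.20 and 0.24. With 3 same-numbered pairs per comparison, this cannot show whether the numbers mark a shared batch. With the replicate number as a block, 0 members were called in SW480 dnLEF1 against Mock, 37 in SW620 Mock against SW480 Mock, 1 for the difference between lines and 0 in the other 3 comparisons. With 3 libraries per group and unknown depth, a member without a call cannot be said to be equal between groups.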

Other observations

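The MT-CO2 level of SW480 dnLEF1 replicate 2 was 10604 TPM, which was 28.6% of its MT sum, against 11.7% in replicate 1 and a median of 14.4% over the 18 libraries. The summed mitochondrial ribosomal RNA averaged 63250 ± 7480 TPM in SW620 dnLEF1, 48090 ± 1510 in LRP6KO, 58750 ± 15100 in Cas9, 35370 ± 5670 in SW620 Mock, 33070 ± 22900 in SW480 dnLEF1 and 47370 ± 7930 in SW480 Mock (SD, n = 3 each). Neither ribosomal RNA was called in any of the 6 comparisons.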
